A study of Triticum turgidum subsp. durum with 36 samples.

Results

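*TaZIP10* and *TaZIP10-like1* are wheat genes of the ZIP (ZRT, IRT-like protein) family, listed by the study under the rice gene *OsZIP10*, and each was measured as a pair of homoeologs on the long arms of chromosomes 7A and 7B. The members were chosen by their level: a locus was taken when its mean normalized count in WT came within 1 count of the value the study lists for that gene and arm at HD, 12 DAA and 22 DAA. The rule found 4 members among the 80168 loci with counts, and all 4 passed the filter on low counts that left 75375 loci for the tests. Each member lay within 0.31 to 0.46 counts of the listed values, while the next nearest locus on the same arm was 50.8 to 177.1 counts away. Because the rule used the WT means, the time course in WT is described without a test. The rule fixed the WT side of each contrast with a mutant but used no mutant level. The mutant libraries entered it only through the size factors, which were computed over all libraries.

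ZIP proteins are membrane transporters that carry zinc, iron and other divalent metals into the cytoplasm, from outside the cell or from an organelle. In cereals, members of the family are discussed as candidates for moving zinc and iron toward the phloem, the tissue through which a senescing flag leaf sends nutrients to the grain. GPC1 (also named NAM1) is a NAC transcription factor that promotes the onset of senescence in wheat, and GPC2 (NAM2) is a close relative of it. Homoeologs are the copies of a gene on the related genomes of a polyploid, here the A and B genomes of tetraploid wheat.

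The study compared single, entire flag leaves of greenhouse-grown plants of the tetraploid variety Kronos in 3 genotypes: *gpc-A1*, with a premature stop codon in *GPC-A1*, the *gpc-A1/gpc-B2* double mutant, with a second stop codon in *GPC-B2*, and their WT siblings without these mutations. Leaves were taken at heading (HD) and at 12 and 22 days after anthesis (DAA), with 4 biological replicates in each of the 9 groups. All groups share the non-functional *GPC-B1* of Kronos and an intact *GPC-A2*, so that *gpc-A1* lacks functional GPC1 while the double mutant keeps a source of GPC2. The mutations came from a TILLING population, that is, from chemical mutagenesis, and the lines were backcrossed to Kronos, so that other mutations of the lines may differ between the groups.

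The 36 libraries held 13754124 to 48981831 counts, with a median of 19377652. The deepest was replicate 4 of WT at 12 DAA, at 2.53 times the median, and in the labels of replicate 1 of *gpc-A1* at HD 1 field reads wild type against its title, which was used. The study reports a check of each sample's genotype in the reads over the mutated positions. By its account the mutant samples carried the expected mutations and no WT sample did. Those reads were not analysed here. Counts per locus cannot repeat the check, since a stop codon leaves reads in place: the locus on 6AS annotated as NAM-B1 had 4383 ± 982 normalized counts (SD, n = 4) in WT at 12 DAA, 4350 ± 1088 in *gpc-A1* and 4550 ± 264 in the double mutant. Each of 22 loci annotated as chlorophyll a-b binding proteins, small subunit of rubisco or rubisco activase had reads in every library, 0.55% to 6.25% of the counts in all. This goes with green tissue but cannot tell a flag leaf from other green tissue. Normalized counts are reads scaled for the depth of each library by the median-of-ratios method, and the locus ranges can include introns, so levels are compared within a locus and not between genes. In whole leaves, fewer cells that use a gene and less RNA per cell cannot be told apart.

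The members lie on contigs of the chromosome-arm assembly of the variety Chinese Spring. *TaZIP10* 7AL is contig 4554120, bases 1 to 2555, and *TaZIP10* 7BL is contig 6557563, bases 1 to 1054. *TaZIP10-like1* 7AL is contig 4404279, bases 2840 to 3532, and *TaZIP10-like1* 7BL is contig 6688105, bases 895 to 1586. The files give each locus as a single range without exons, introns or UTRs.

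The pairs had different time courses in WT leaves. *TaZIP10* was already present at HD and its mean was 1.79-fold (7AL) and 1.99-fold (7BL) higher at 12 DAA, whereas *TaZIP10-like1* was near 0 at HD and its mean was 32.5-fold (7AL) and 143.3-fold (7BL) higher at 12 DAA. At 22 DAA the means of the 4 loci were 0.89 to 1.22 times those at 12 DAA, and the libraries of both times overlapped. These are the values by which the loci were chosen, and no test was made of them.

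In WT, *TaZIP10* 7AL had 239.1, 280.99, 550.1 and 263.5 normalized counts in replicates 1 to 4 at HD, 530.97, 511.0, 587.7 and 754.9 at 12 DAA, and 424.3, 483.7, 590.4 and 623.7 at 22 DAA. *TaZIP10* 7BL had 161.2, 232.7, 434.4 and 237.9 at HD, 522.2, 437.2, 494.5 and 668.4 at 12 DAA, and 373.2, 488.8, 515.1 and 551.6 at 22 DAA. Replicate 3 stood high at HD for both homoeologs, and through this library the WT groups at HD and 12 DAA overlapped for 7AL.

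In WT, *TaZIP10-like1* 7AL had 1.1, 2.0, 1.4 and 23.7 normalized counts at HD, 175.4, 239.0, 223.6 and 279.2 at 12 DAA, and 187.5, 247.3, 249.8 and 431.0 at 22 DAA. *TaZIP10-like1* 7BL had 4.4, 1.0, 0 and 12.8 at HD, 414.1, 525.2, 672.0 and 1006.4 at 12 DAA, and 469.2, 804.2, 528.5 and 787.2 at 22 DAA. No WT library at HD came near any WT library of the later times for this pair. The HD values rest on 28 reads for 7AL and 18 for 7BL over the 4 libraries, and the 0 of 7BL in replicate 3 allows up to 3 reads, so folds against HD are imprecise.

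**Figure D1:**
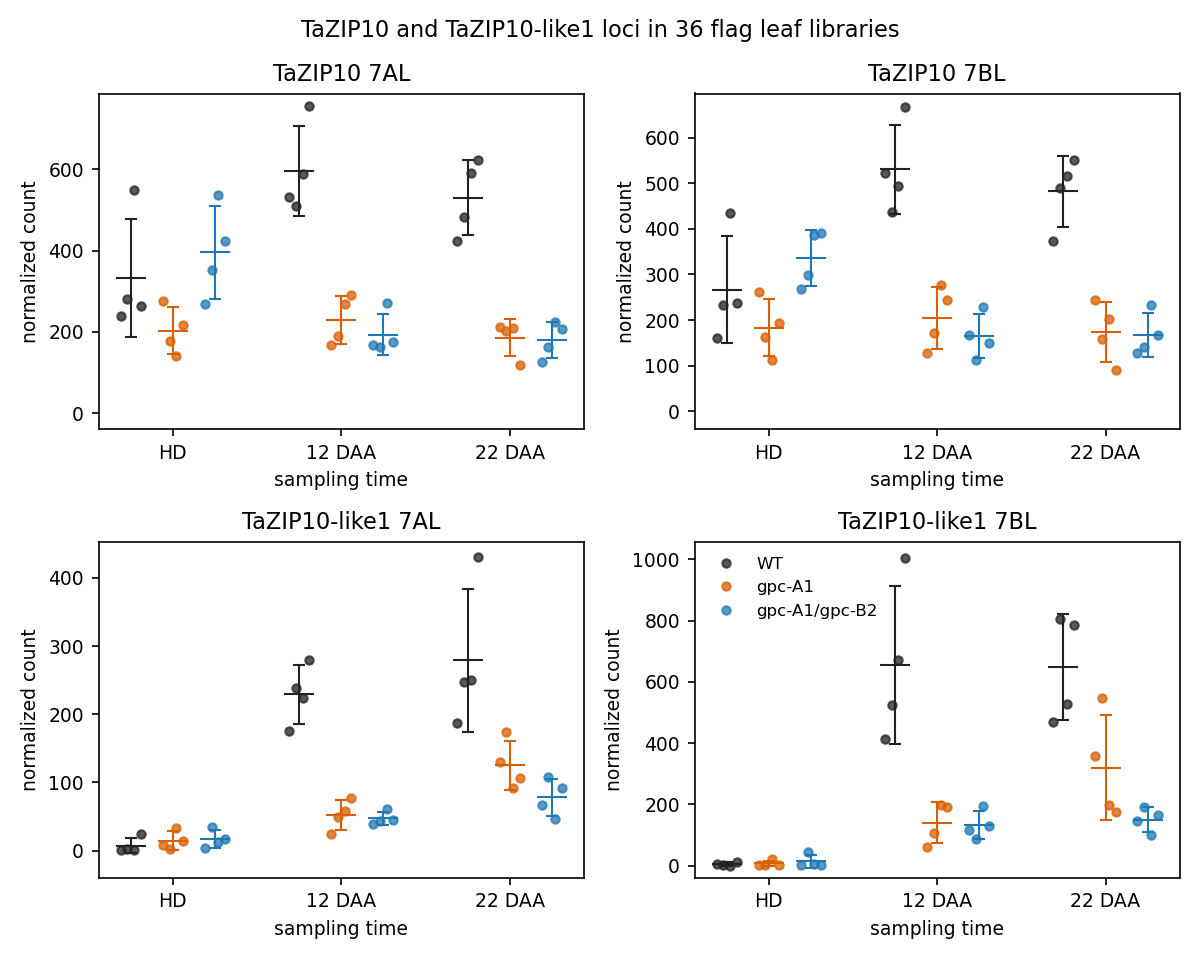
Normalized counts of the 4 loci in each of the 36 libraries (points), by sampling time and genotype, with the group mean (horizontal mark) and SD (error bars, n = 4). At 12 DAA the WT libraries of every locus lie above all libraries of both mutants, and the TaZIP10-like1 loci are near 0 in all genotypes at HD.

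In *gpc-A1*, *TaZIP10* 7AL had 275.8, 177.7, 141.1 and 216.3 normalized counts at HD, 168.7, 189.5, 267.8 and 291.3 at 12 DAA, and 212.2, 202.2, 210.2 and 118.0 at 22 DAA. *TaZIP10* 7BL had 261.9, 163.4, 112.4 and 193.6 at HD, 127.1, 172.0, 276.2 and 243.1 at 12 DAA, and 244.9, 157.3, 201.8 and 90.7 at 22 DAA. The 3 times overlapped for both loci, around means between 173.7 and 229.3.

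In the double mutant, *TaZIP10* 7AL had 269.3, 351.1, 537.7 and 423.4 normalized counts at HD, 166.4, 161.9, 270.5 and 174.9 at 12 DAA, and 126.2, 162.9, 223.7 and 206.6 at 22 DAA. *TaZIP10* 7BL had 268.2, 298.7, 387.2 and 390.9 at HD, 167.5, 111.9, 228.1 and 150.6 at 12 DAA, and 126.99, 140.6, 233.9 and 167.2 at 22 DAA. Here HD was the high point: the later libraries lay below those of HD except that replicate 3 of 7AL at 12 DAA reached the lowest HD library.

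In *gpc-A1*, *TaZIP10-like1* 7AL had 8.9, 2.0, 33.7 and 13.6 normalized counts at HD, 24.4, 48.9, 58.2 and 76.8 at 12 DAA, and 129.6, 174.1, 91.5 and 106.6 at 22 DAA. *TaZIP10-like1* 7BL had 1.3, 3.0, 21.2 and 3.4 at HD, 62.3, 105.6, 198.97 and 192.9 at 12 DAA, and 359.1, 546.7, 196.6 and 175.8 at 22 DAA. Both loci were higher at 22 DAA than at HD in every library, and the 7BL group at 22 DAA was split between 2 high and 2 lower libraries.

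In the double mutant, *TaZIP10-like1* 7AL had 3.3, 34.2, 13.3 and 16.8 normalized counts at HD, 38.4, 44.1, 61.1 and 45.4 at 12 DAA, and 66.7, 107.6, 46.1 and 91.9 at 22 DAA. *TaZIP10-like1* 7BL had 2.2, 43.8, 5.5 and 3.2 at HD, 116.3, 85.6, 195.7 and 130.6 at 12 DAA, and 145.5, 192.1, 99.0 and 165.4 at 22 DAA. Replicate 2 was the highest library at HD for both loci and remained below all libraries of the later times.

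The first question was whether the levels at 12 DAA depend on *GPC-A1* or on both genes. At 12 DAA all 4 loci were lower in *gpc-A1* than in WT, with means at 38.5% (*TaZIP10* 7AL), 38.6% (7BL), 22.7% (*TaZIP10-like1* 7AL) and 21.4% (7BL) of WT. The means in the double mutant were 32.4%, 31.01%, 20.6% and 20.2% of WT, in the same order. A locus was called differentially expressed (DE) when it passed 4 tests, namely edgeR's quasi-likelihood test and DESeq2, both at an adjusted P up to 0.01, a rank test at a P up to 0.05 and a test of the difference of means at a P up to 0.01. By this rule 4 of 4 members were DE and lower in each mutant, where 0.296% of all 75375 tested loci were called lower in *gpc-A1* and 1.01% in the double mutant.

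For *gpc-A1* against WT at 12 DAA, the log2 fold change of *TaZIP10* was -1.38 ± 0.19 (SE) for 7AL (edgeR adjusted P = 0.00266) and -1.38 ± 0.22 for 7BL (edgeR adjusted P = 0.00755). For *TaZIP10-like1* it was -2.13 ± 0.26 for 7AL (edgeR adjusted P = 0.000996) and -2.23 ± 0.34 for 7BL (edgeR adjusted P = 0.00632). The highest *gpc-A1* library lay below the lowest WT library for all 4 members, as it did for 4.24% of all tested loci. Within each replicate number, that is, within each sequencing pool, the mutant was lower in 4 of 4 pairs at each locus. This follows from the lack of overlap and adds no further evidence.

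For the double mutant against WT at 12 DAA, the log2 fold change of *TaZIP10* was -1.63 ± 0.20 for 7AL (edgeR adjusted P = 0.000541) and -1.70 ± 0.21 for 7BL (edgeR adjusted P = 0.000692). For *TaZIP10-like1* it was -2.29 ± 0.19 for 7AL (edgeR adjusted P = 3e-05) and -2.32 ± 0.30 for 7BL (edgeR adjusted P = 0.000919). The comparison shares its 4 WT libraries with that of *gpc-A1*. The groups again did not overlap for any of the 4 members, which held in this direction for 9.5% of all tested loci. That the mutant was lower in 4 of 4 pairs at each locus again follows from this.

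The *gpc-A1* calls at 12 DAA were less firm than those of the double mutant. Without replicates 1, 2, 3 or 4 in turn, the rule called 1, 0, 0 and 2 of the 4 members in *gpc-A1*, and without the deepest library alone, replicate 4 of WT, it called 1, *TaZIP10-like1* 7AL. In the double mutant it called 3 without replicates 1, 2 or 3 and 1 without replicate 4, and *TaZIP10-like1* 7BL was lost in each of these 4 fits. In one fit of all groups only *TaZIP10* 7AL kept its call in *gpc-A1*, with edgeR adjusted P-values of 0.0144 for *TaZIP10* 7BL and 0.0267 (7AL) and 0.033 (7BL) for *TaZIP10-like1*. The log2 fold changes in *gpc-A1* stayed negative when 1 replicate was left out. Over these 4 fits they lay between -1.47 and -1.32 for *TaZIP10* 7AL and between -1.59 and -1.22 for 7BL. For *TaZIP10-like1* they lay between -2.26 and -2.03 (7AL) and between -2.43 and -2.12 (7BL). Over all loci, the calls in *gpc-A1* went from 342 to between 139 and 169 with 3 replicates. With unequal variances in the test of means, *TaZIP10-like1* 7BL lost its call in both mutants, and the other 3 kept theirs. The same member lost its calls in both when the counts of its contig neighbour were added.

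**Figure D2:**
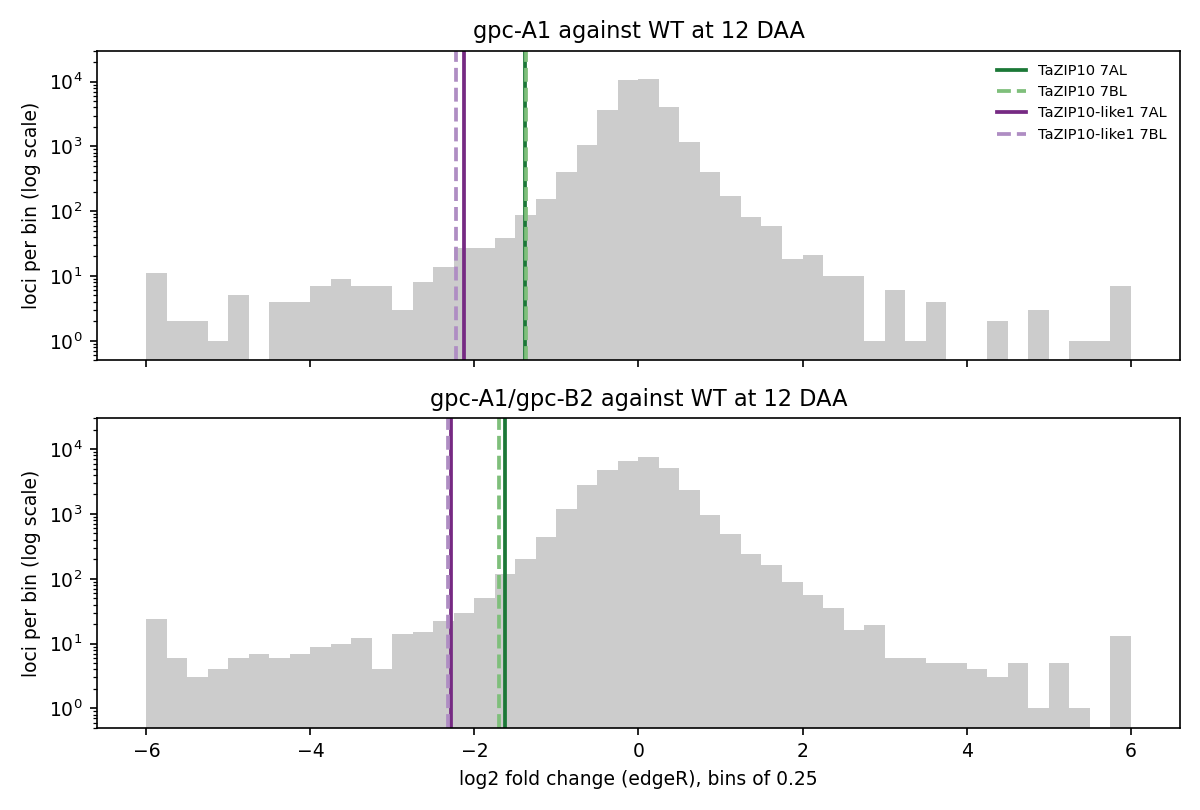
Number of loci (log axis) by log2 fold change against WT at 12 DAA, in bins of 0.25, for loci with a mean of at least 50 normalized counts, with the 4 members as vertical lines. The outermost bins also hold the loci beyond -6 or 6. The members lie in the lower tail, from -1.38 to -2.23 in gpc-A1 and from -1.63 to -2.32 in gpc-A1/gpc-B2.

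The median log2 fold change of all tested loci was 0.01 in both comparisons at 12 DAA.

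At HD no member was DE in either mutant, where the rule called 0% of all loci in *gpc-A1* and 0.00133% in the double mutant. By edgeR, 1 of 4 members had an unadjusted P under 0.05 in *gpc-A1* and 0 of 4 in the double mutant, as had 5543 and 3725 of the 75375 tested loci, and DESeq2 called 0 of 4 in both. The means of *TaZIP10* in *gpc-A1* were 60.8% (7AL) and 68.6% (7BL) of WT, at log2 fold changes of -0.70 ± 0.28 and -0.53 ± 0.30 (edgeR adjusted P = 0.624 and 0.75). With 1 replicate left out, the log2 fold changes ranged from -1.02 to -0.23 (7AL) and from -0.94 to -0.04 (7BL). Within replicate 3 the log2 difference was -1.96 (7AL) and -1.94 (7BL). Within the other replicates it lay from -0.66 to 0.21 and from -0.51 to 0.70. In the double mutant the *TaZIP10* means were 118.6% and 126.2% of WT, at log2 fold changes of 0.28 ± 0.28 and 0.37 ± 0.26. Each mutant group overlapped with WT. The *TaZIP10-like1* loci had too few reads at HD for a difference to be detectable, with SEs of 0.84 to 1.03 on the log2 scale.

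The mutants themselves lay apart at HD for *TaZIP10*, though not past the threshold. The double mutant was higher than *gpc-A1* by 0.97 ± 0.23 (7AL) and 0.88 ± 0.23 (7BL) on the log2 scale, with unadjusted edgeR P-values of 0.00152 and 0.00238 and adjusted ones of 0.782 for both. Of all loci, 4248 had an unadjusted edgeR P under 0.05 here. The groups did not overlap for 7BL, which held for 1.78% of all loci in this direction, and for 7AL a single library of each group crossed. The rule called 0 of 4 members and 0.00133% of all loci, and DESeq2 alone also called 0 of 4. Replicate 1 of *gpc-A1* at HD, whose label fields are in conflict, had the highest *TaZIP10* values of its group. The study reports that the genotypes of its samples held in the reads, which were not analysed here. Without it the differences were 1.15 (7AL) and 1.10 (7BL) on the log2 scale.

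At 22 DAA the members were again lower in the mutants by their means, but few passed the rule. In *gpc-A1* the means were 34.99% (*TaZIP10* 7AL), 36.02% (7BL), 44.98% (*TaZIP10-like1* 7AL) and 49.4% (7BL) of WT, and in the double mutant 33.9%, 34.7%, 27.99% and 23.3%. In *gpc-A1* the rule called 0 of 4 members and 0% of all loci, while 4 of 4 members and 4022 of all 75375 loci had an unadjusted edgeR P under 0.05. DESeq2 alone called 2 members, both of *TaZIP10*, and 128 of all loci. The log2 fold changes were -1.54 ± 0.23 and -1.49 ± 0.29 for *TaZIP10* (edgeR adjusted P = 0.159 and 0.385) and -1.19 ± 0.29 and -1.06 ± 0.35 for *TaZIP10-like1* (edgeR adjusted P = 0.686 and 0.898). The groups did not overlap for 3 of 4 members, against 1.58% of all loci, and overlapped for *TaZIP10-like1* 7BL. The mutant was lower in 4 of 4 pairs of the same replicate number at each of the 4 loci. Except for *TaZIP10-like1* 7BL, this follows from the lack of overlap.

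In the double mutant at 22 DAA, 1 of 4 members was DE, *TaZIP10-like1* 7BL, at a log2 fold change of -2.09 ± 0.24 (edgeR adjusted P = 0.00508), where 0.105% of all loci were called lower. It lost the call whichever of the 4 replicates was left out, with log2 fold changes between -2.21 and -2.02. The other 3 had log2 fold changes of -1.55 ± 0.21, -1.51 ± 0.22 and -1.83 ± 0.31, with edgeR adjusted P-values of 0.0112, 0.0128 and 0.0248. DESeq2 alone called 4 of 4, but it also called 1669 of all loci. With the replicate number as a block *TaZIP10* 7AL also passed (log2 fold change -1.57, edgeR adjusted P = 0.00871), which made 2, beside 36 of all loci. In one fit of all groups, which called 406 of all loci, the 2 called were *TaZIP10* 7AL and 7BL (edgeR adjusted P = 0.000753 and 0.00297). *TaZIP10-like1* 7BL lost its call there (edgeR adjusted P = 0.0197). None of the 4 members overlapped with WT, as for 4.8% of all loci.

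**Figure D3:**
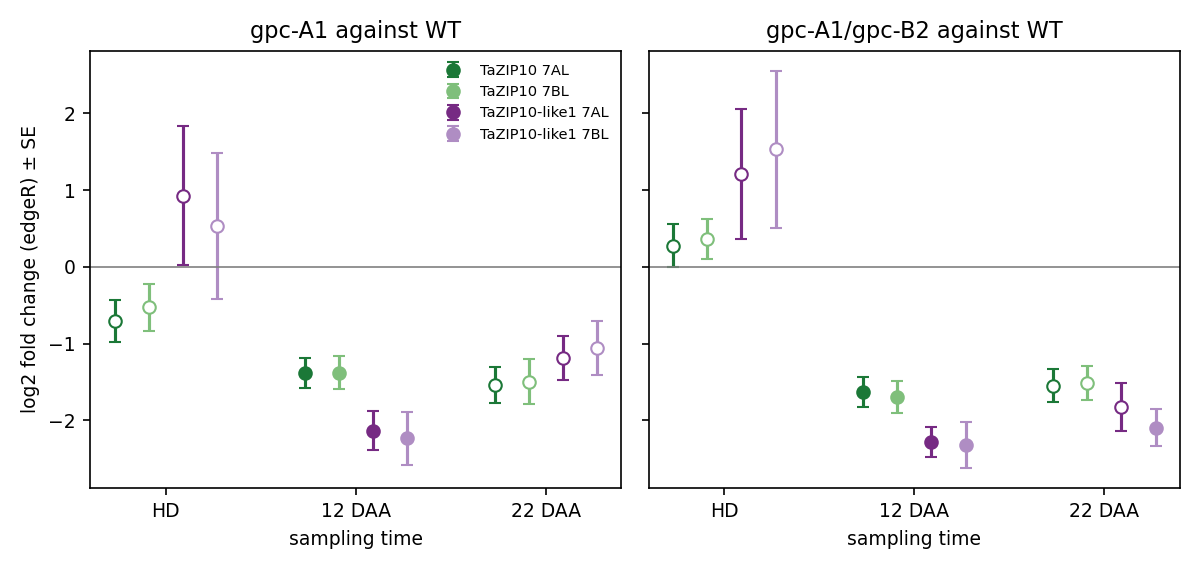
Log2 fold change of each locus against WT (edgeR, error bars are SE) at the 3 sampling times in gpc-A1 and gpc-A1/gpc-B2; filled points passed the 4-test rule and open points did not. All 4 points are filled in both panels at 12 DAA, and at 22 DAA the filled one is TaZIP10-like1 7BL in the double mutant.

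The next question was whether loss of *GPC-B2* added to that of *GPC-A1*. Between the mutants, 0 of 4 members were DE at 12 DAA (0.203% of all loci) and 0 of 4 at 22 DAA (0.0119%), and DESeq2 alone called none at either time. At 12 DAA the double mutant differed from *gpc-A1* by -0.24 ± 0.22, -0.32 ± 0.26, -0.15 ± 0.30 and -0.09 ± 0.35 on the log2 scale, for *TaZIP10* 7AL and 7BL and *TaZIP10-like1* 7AL and 7BL, and 0 of 4 members, against 7842 of all 75375 loci, had an unadjusted edgeR P under 0.05. At 22 DAA the differences were -0.03 ± 0.24 and -0.04 ± 0.31 for *TaZIP10* and -0.66 ± 0.29 and -1.05 ± 0.35 for *TaZIP10-like1*. The last 2 had unadjusted edgeR P-values of 0.0454 and 0.0137, with an adjusted P of 0.871 for both, where 4138 of all loci had an unadjusted P under 0.05. The double mutant was lower in 4 of 4 pairs of the same replicate number at both *TaZIP10-like1* loci, and in 2 of 4 at both *TaZIP10* loci. When the replicate number was a block, the *TaZIP10-like1* differences were -0.69 and -0.97, at unadjusted edgeR P-values of 0.0106 and 0.00469 and adjusted ones of 0.873 and 0.838, and neither was called. For *TaZIP10-like1* 7BL, replicates 1, 2 and 3 of *gpc-A1* were above all libraries of the double mutant, replicate 3 by a narrow margin, and replicate 4 lay within its range.

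Time was tested within the mutants, whose levels the matching rule did not use. The members were, however, chosen with earlier results of these data known. In *gpc-A1*, no change of *TaZIP10* from HD was detected. Its log2 fold changes were 0.18 ± 0.22 (7AL) and 0.16 ± 0.27 (7BL) at 12 DAA and -0.16 ± 0.25 and -0.11 ± 0.32 at 22 DAA, with edgeR adjusted P-values from 0.709 to 0.858. *TaZIP10-like1* rose. From HD to 12 DAA the 7BL locus was DE, at 4.29 ± 0.59 (edgeR adjusted P = 0.00558), which made 1 of 4 members beside 0.191% of all loci called higher, and 7AL reached 1.88 ± 0.54 (edgeR adjusted P = 0.115). From HD to 22 DAA 7AL was DE, at 3.08 ± 0.55 (edgeR adjusted P = 0.00949), again 1 of 4 members beside 0.808% of all loci called higher, and 7BL reached 5.42 ± 0.67 (edgeR adjusted P = 0.00245) but missed in the test of means. The groups did not overlap for 7BL from HD to 12 DAA, as for 4.74% of all loci in this direction, and for both loci from HD to 22 DAA, as for 11.4%. In terms of means, the fold from HD to 12 DAA was 3.58 (7AL) and 19.3 (7BL).

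These calls in *gpc-A1* rest on few reads at HD, 48 for 7AL and 24 for 7BL over 4 libraries. The 12 DAA call was lost whichever of the 4 replicates was left out, without replicate 1 of *gpc-A1* at HD alone, with unequal variances in the test of means and with the neighbouring locus of the contig added. The 22 DAA call was lost with the replicate block, at an edgeR adjusted P of 0.0232, without replicates 1, 2 or 4, and without replicate 1 of *gpc-A1* at HD alone. Log2 fold changes over the leave-one-out fits ranged from 3.87 to 5.45 for 7BL at 12 DAA and from 2.52 to 4.03 for 7AL at 22 DAA.

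*TaZIP10* and *TaZIP10-like1* moved in opposite directions with time in the double mutant. From HD to 22 DAA 3 of 4 members were DE. *TaZIP10* 7BL fell by 1.01 ± 0.21 on the log2 scale (edgeR adjusted P = 0.0078), beside 3.17% of all loci called lower, and *TaZIP10-like1* rose by 2.17 ± 0.46 (7AL, edgeR adjusted P = 0.00824) and 3.39 ± 0.62 (7BL, edgeR adjusted P = 0.00383), beside 2.85% called higher. *TaZIP10* 7AL had a log2 fold change of -1.14 ± 0.24 (edgeR adjusted P = 0.00755) and missed in the test of means. From HD to 22 DAA no member overlapped, with the *TaZIP10* loci below HD, as 10.5% of all loci were, and the *TaZIP10-like1* loci above HD, as 11.6% were. Without replicates 1, 2, 3 or 4 in turn the count was 0, 1, 0 and 0, and in one fit of all groups *TaZIP10* 7BL lost its call (edgeR adjusted P = 0.0139).

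From HD to 12 DAA in the double mutant, 0 of 4 members passed the rule, where 1.4% of all loci did, but 4 of 4 members and 15684 of all loci had an unadjusted edgeR P under 0.05. DESeq2 alone called 3 members and 3898 of all loci. The log2 fold changes were -1.02 ± 0.24 and -1.02 ± 0.22 for *TaZIP10* (edgeR adjusted P = 0.0289 and 0.0211) and 1.46 ± 0.45 and 3.22 ± 0.65 for *TaZIP10-like1* (edgeR adjusted P = 0.0808 and 0.0171). By their means, *TaZIP10* at 12 DAA was at 0.49 of its HD level at both loci. The groups did not overlap for *TaZIP10* 7BL (below HD, as for 6.81% of all loci) and for both *TaZIP10-like1* loci (above HD, as for 7.31%).

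From 12 to 22 DAA no member was DE in either mutant, and the rule called 0% of all loci in both comparisons. DESeq2 alone called 0 of 4 members in each. In *gpc-A1* 2 of 4 members, the *TaZIP10-like1* loci, had an unadjusted edgeR P under 0.05, with log2 fold changes of 1.26 ± 0.33 and 1.18 ± 0.43 and, for 7AL, no overlap (4.69% of all loci in this direction), and in the double mutant 1 of 4, *TaZIP10-like1* 7AL, at 0.72 ± 0.27. Of all loci, 13440 in *gpc-A1* and 4621 in the double mutant had an unadjusted edgeR P under 0.05. The means of *TaZIP10-like1* at 22 DAA were 2.41 (7AL) and 2.28 (7BL) times those at 12 DAA in *gpc-A1*, and 1.65 and 1.14 times in the double mutant.

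Whether time courses differed between genotypes was tested directly, as the interaction of genotype and time in edgeR over 16 libraries. In the interactions with WT, 1 side is the WT time course by whose means the members were matched. Their P-values are therefore not independent of that choice. The interactions between the mutants do not use WT levels. From HD to 12 DAA, the change of *TaZIP10* in the double mutant differed from that in WT by -1.90 ± 0.37 (7AL) and -2.05 ± 0.37 (7BL) on the log2 scale, with edgeR adjusted P-values of 0.0309 and 0.0144, just outside the threshold of 0.01. With the replicate number as a block both passed, at edgeR adjusted P-values of 0.00205 and 0.00368. DESeq2 alone called both, beside 319 of all loci. Over all alternatives, DESeq2 included, the adjusted P ranged from 0.000773 to 0.481 for 7AL and from 0.000105 to 0.374 for 7BL, and both passed in edgeR without replicate 3. From HD to 22 DAA the differences were -1.83 ± 0.38 and -1.88 ± 0.36, with edgeR adjusted P-values of 0.0993 and 0.0684. The block, which called 53 of all loci, moved these to 0.00235 and 0.00196. Over all alternatives the adjusted P ranged from 0.00235 to 0.853 for 7AL and from 0.00118 to 0.836 for 7BL. Without the block, 0 of 4 members were called at either time, beside 0.161% of all loci from HD to 12 DAA and 0.0212% from HD to 22 DAA, while 4 of 4 members had an unadjusted edgeR P under 0.05 at both, as had 7467 and 4246 of all loci.

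For *TaZIP10-like1*, the change from HD to 12 DAA differed from that in WT by -3.02 ± 0.91 (7AL) and -2.73 ± 1.06 (7BL) in *gpc-A1* and by -3.48 ± 0.81 and -3.85 ± 1.01 in the double mutant, with edgeR adjusted P-values from 0.0967 to 0.749. None of the interactions between *gpc-A1* and WT was called for any member at either time, beside 0.0239% of all loci from HD to 12 DAA and 0% from HD to 22 DAA. By edgeR 2 of 4 members had an unadjusted P under 0.05 at each time, as had 4523 and 3679 of all loci, and DESeq2 alone called 0. Between the mutants, the change of *TaZIP10* from HD to 12 DAA differed by -1.22 ± 0.35 and -1.21 ± 0.38 in the double mutant against *gpc-A1*, at edgeR adjusted P-values of 0.851 and 0.897. There edgeR called 0 of 4 members at either time, against 0.00133% of all loci, with 2 of 4 members, and 3631 and 3442 of all loci, at an unadjusted edgeR P under 0.05 and 0 members called by DESeq2.

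The homoeologs of a gene were compared within each library as the share of the 7AL locus in the reads of the pair, which needs no size factor. For *TaZIP10* the 7AL share was close to even in all 9 groups, with means from 51.9% to 55.7% and SDs from 1.75 to 4.81 percentage points (n = 4). For *TaZIP10-like1* the 7BL locus led after HD: the mean 7AL share was 26.9% ± 4.4 in WT, 27.7% ± 3.7 in *gpc-A1* and 27.1% ± 4.7 in the double mutant at 12 DAA, and 29.9% ± 5.1, 30.05% ± 6.04 and 33.7% ± 2.4 at 22 DAA. At HD the share could hardly be measured, with 1 to 82 reads per pair and library, and its SD in WT was 32.8 percentage points. The sources do not say which parts of the genes the loci cover, so a share away from 50% is not in itself a difference between homoeologs.

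**Figure D4:**
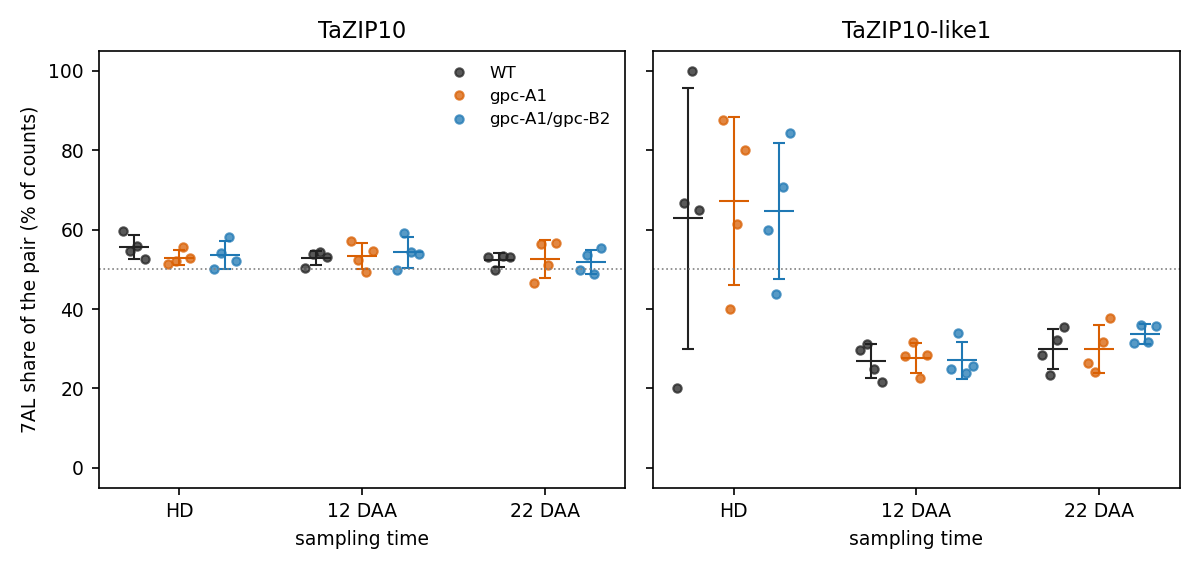
Share of the 7AL locus in the reads of both homoeologs, in percent, in each library (points) by sampling time and genotype, with the group mean and SD (n = 4); the dotted line is 50%. The TaZIP10 shares stay between 46.4% and 59.7%, and the TaZIP10-like1 shares lie between 21.7% and 37.8% after HD. At HD the TaZIP10-like1 shares rest on 1 to 82 reads per pair and library.

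No difference in these shares between genotypes was detected. In 30 two-sided exact permutation tests of the log2 ratio of 7AL to 7BL reads (4 against 4, smallest possible P = 0.0286), none of the 18 between genotypes had a P under 0.05, and at 12 DAA the mutants differed from WT by 0.02 to 0.08. For *TaZIP10-like1* the log2 ratio was lower at both later times than at HD in each mutant, with differences from -2.46 to -1.86, and the groups did not overlap in any of these 4 comparisons (exact P = 0.0286, adjusted P = 0.214 over the 30 tests). The HD side of these 4 rests on 5 to 82 reads per pair and library.

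The loci next to the members on their contigs, which the rule did not use, also had lower fitted values in both mutants at 12 DAA, though none passed the rule there. A locus starts 239 bp after *TaZIP10* 7AL, and others lie 30 bp from *TaZIP10-like1* 7AL and 7BL. The sources do not say whether these belong to the same genes. At 12 DAA their log2 fold changes in *gpc-A1* were -1.20 ± 0.23, -2.76 ± 0.48 and -2.21 ± 0.50, in that order, and in the double mutant -0.91 ± 0.29, -3.18 ± 0.44 and -2.35 ± 0.41. The neighbour of *TaZIP10-like1* 7BL had 0.5 ± 1.0 normalized counts in WT at HD, 316.4 ± 197.5 at 12 DAA and 315.3 ± 115.2 at 22 DAA, and it was DE in the double mutant at 22 DAA (log2 fold change -2.37 ± 0.31, edgeR adjusted P = 0.00868).

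Homoeologs followed each other more closely than the pairs did. Across the 36 libraries the correlation of log2 normalized counts was 0.97 between the *TaZIP10* homoeologs and 0.95 between those of *TaZIP10-like1*, against 0.15 to 0.28 between the pairs. After the group means were removed, it was 0.91 and 0.76 within the pairs and -0.14 to 0.08 between them. Over the libraries of 12 and 22 DAA alone, where *TaZIP10-like1* had more reads, the correlation without the group means was 0.90 and 0.84 within the pairs and 0.34 to 0.61 between them. These are descriptions over libraries that share their genotype, time and depth.

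The loci most like each member among the 33947 other loci with a mean of at least 50 normalized counts were taken by the Pearson correlation over the 36 libraries. For both *TaZIP10* loci they were the same 3, with r from 0.91 to 0.92: contig 4389148 of 3AL (up to base 2066), contig 4246562 of 3AL (bases 28 to 1170) and contig 6497665 of 7BL (bases 204 to 1008). The first had means of 142.0, 766.3 and 678.8 in WT at HD, 12 DAA and 22 DAA, 64.9, 87.2 and 40.4 in *gpc-A1*, and 233.3, 75.2 and 43.5 in the double mutant. Like *TaZIP10*, it was highest in WT at 12 DAA and, in the double mutant, highest at HD. Since it was chosen for its likeness over these libraries, this is not a separate observation.

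For *TaZIP10-like1* 7AL the most alike were contig 4432002 of 7AL (bases 2978 to 3984) and contig 4552888 of 7AL (bases 12 to 568), both at r = 0.96, and the neighbour of *TaZIP10-like1* 7BL at r = 0.95. The same neighbour led for *TaZIP10-like1* 7BL at r = 0.98, before contig 6394593 of 2AL (bases 2886 to 5061) at r = 0.93 and contig 5304580 of 2AS (bases 11322 to 18941) at r = 0.92. Contig 4432002 had means of 28.9, 621.3 and 819.4 in WT at HD, 12 DAA and 22 DAA, against 37.1, 141.3 and 255.2 in *gpc-A1*. None of these loci has a description in the annotation used here, which covered only 782 of the 80168 loci.

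Other loci of the study's list of transporters moved at 12 DAA as well. Of the 18 other ZIP loci that could be matched, 6 were DE and lower in *gpc-A1* and 7 in the double mutant, beside 0.296% and 1.01% of all tested loci, and none was higher, with median log2 fold changes over the 18 of -0.62 and -0.54. Among them, the *TaZIP3* loci fell by 2.58 ± 0.25 (2AL) and 2.03 ± 0.30 (2BL) on the log2 scale in *gpc-A1*, and *TaZIP7* 1BS, whose barley relative carries zinc, by 1.41 ± 0.23. At 22 DAA 0 of the 18 were DE in *gpc-A1* and 2 in the double mutant, both of *TaZIP13-like2*, beside 0% of all loci called and 0.105% called lower.

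Of 15 YSL loci, which encode carriers of metals bound to nicotianamine or mugineic acids, none was DE in either mutant at 12 DAA. Of all tested loci, 0.296% were called lower in *gpc-A1* and 1.01% in the double mutant. At such shares, none of 15 does not set the YSL loci apart from all loci. Of 7 loci for the synthesis of these chelators, the 3 of nicotianamine aminotransferase (*TaNAAT1* 1AL, *TaNAAT2* 1AL and *TaNAAT2* 1BL) were DE and lower in both mutants, at log2 fold changes from -3.39 to -2.16 in *gpc-A1*. Of 27 loci of chloroplast and vacuole transporters, 1 was lower in *gpc-A1* (*TaZIFL7* 5AL) and 2 in the double mutant (*TaZIFL7* 5AL and *TaHMA2-like* 7AL). These lists were chosen by the study with these samples in view, and no enrichment was tested.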

How the data were processed

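Flag leaf RNA was measured by RNA-seq in 36 libraries. According to the methods, the authors aligned the reads with GSNAP to A and B genome contigs, counted reads with a unique position in each locus with HTSeq, and deposited raw counts without normalization. Reads that fit both homoeologs are not in these counts. Groups followed the labels. A locus was tested if 2 or more replicates of any group had over 3 reads. Each comparison was fitted on its 8 libraries in R 4.3.3 with edgeR 4.0.16 (TMM) and DESeq2 1.42.0 (in place of the methods' DESeq); the call rule also needs a Mann-Whitney-Wilcoxon P of at most 0.05 (normal approximation) and a t-test P of at most 0.01. The equal variances of that t-test were chosen after seeing the data, and unequal ones are an alternative. All tests are two-sided, and SE was obtained from edgeR's F statistic, as the absolute log2 fold change over its root. Python 3.11.15 and scipy 1.17.1 gave the permutation tests. 0.5 was added to both counts of a ratio.

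The 4 members, the transporter lists, and the rule for naming the 3 most alike loci were chosen with earlier results of these data known. Listed transporters were matched by WT level with at least 1 value of 50 or more. The methods state that samples with the same replicate number were sequenced together, so the numbers pair samples. Once group means were subtracted, libraries of 1 number correlated at 0.012 on average, with 26 of 144 pairs over 0.1. Across numbers the average was -0.004, with 66 of 432 pairs over 0.1. On simulated data over 75375 loci, for *gpc-A1* against WT at 12 DAA, the rule recovered 32 of 100 loci changed 2-fold and 96 of 100 changed 4-fold, with 6 false calls. The interaction test recovered 8 and 86, with 5 false calls. The changed loci had a mean of 50 or more reads, and the interaction was simulated with 12 DAA levels at both times. These recoveries therefore do not apply to *TaZIP10-like1* in comparisons with HD, where its reads were few. The simulated spread and depth were also those of the 12 DAA libraries. The spread of *TaZIP10* at HD, where replicate 3 of WT stood high, was not simulated, so its interaction recoveries may differ.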

Additional observations from a re-analysis of the deposited data

Results flagged for a closer look

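In 6 of the 36 groups of 4 libraries formed by the 4 loci, 1 library stood far from the other 3 by Dixon's test at the 95% level, which chance does in about 1 group in 20. For *TaZIP10* 7AL these were replicate 3 of WT at HD, at 550.1 normalized counts with the next at 280.99, replicate 3 of the double mutant at 12 DAA, at 270.5 with the next at 174.9, and replicate 4 of *gpc-A1* at 22 DAA, which was low, at 118.0 with the next at 202.2. In these 3 libraries *TaZIP10* 7BL was also the highest or, in *gpc-A1*, the lowest of its group, at 434.4, 228.1 and 90.7. For *TaZIP10-like1* the flagged libraries were all at HD: replicate 4 of WT at 23.69 for 7AL, with the next at 1.97, replicate 3 of *gpc-A1* at 21.23 for 7BL, with the next at 3.40, and replicate 2 of the double mutant at 43.76 for 7BL, with the next at 5.53. The other *TaZIP10-like1* homoeolog was the highest of its group in the same 3 libraries.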

How the results depend on the processing

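The counts below are of the 4 members called. Of 984 values of a member under an alternative, 870 kept direction and call, 59 lost the call, 29 gained it and 26 changed sign, none of the last from a called value. With edgeR and DESeq2 each on its own, 2 members were called from HD to 22 DAA in *gpc-A1* in place of 1. DESeq2 alone called 2 in *gpc-A1* against WT at 22 DAA (0 by the rule), 4 in the double mutant against WT at 22 DAA (1), 3 from HD to 12 DAA in the double mutant (0), and 2 in each interaction of the double mutant and WT (0). One fit of all groups called 1, 1, 2 and 1 in *gpc-A1* against WT at 12 DAA (4) and 22 DAA (0), the double mutant against WT at 22 DAA (1) and HD to 12 DAA in the double mutant (0), where the 2 in the double mutant at 22 DAA were both of *TaZIP10* in place of *TaZIP10-like1* 7BL. The replicate block called 2 in the double mutant against WT at 22 DAA, 0 from HD to 22 DAA in *gpc-A1* and 2 in each interaction of the double mutant and WT, and changed no other call count beyond 1.5 times. It turned the difference between the mutants at 22 DAA for *TaZIP10* 7BL to 0.0062.

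Leaving out 1 replicate number gave 0 to 2 members in *gpc-A1* against WT at 12 DAA, 1 to 3 in the double mutant, 0 in the double mutant at 22 DAA, 0 from HD to 12 DAA and 0 to 1 from HD to 22 DAA in *gpc-A1*, 0 to 1 from HD to each later time in the double mutant, and 0 to 2 in its interaction with WT from HD to 12 DAA. Alternatives chosen after seeing the data were unequal variances in the t-test, the summed loci of a contig, and 2 libraries left out alone. From HD to 12 DAA in *gpc-A1* the first 2 called 0, as did the fit without replicate 1 of *gpc-A1* at HD. From HD to 22 DAA the summed contigs called 2 and the fit without that library 0. There *TaZIP10* turned to 0.02 (7AL) and 0.11 (7BL). Without replicate 4 of WT at 12 DAA, 1 was called in *gpc-A1* against WT.

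With 1 replicate left out, log2 fold changes that crossed 0 ranged, for *TaZIP10* 7AL, from -0.26 to 0.20 between the mutants at 22 DAA, from -0.042 to 0.48 from HD to 12 DAA in *gpc-A1* and from -0.37 to 0.039 to 22 DAA. For 7BL they ranged from -0.24 to 0.31, -0.19 to 0.55 and -0.37 to 0.14 in the same order, and from 12 to 22 DAA from -0.62 to 0.064 in *gpc-A1* and -0.045 to 0.15 in the double mutant. For *TaZIP10-like1* 7AL they ranged from -0.18 to 3.15 in *gpc-A1* against WT at HD and, between the mutants, from -0.74 to 1.21 at HD and -0.28 to 0.12 at 12 DAA. For 7BL they ranged from -1.18 to 2.07 and from -0.74 to 3.14 in *gpc-A1* and the double mutant against WT at HD, from -1.22 to 2.63 and -0.27 to 0.11 between the mutants at HD and 12 DAA, and from -0.11 to 0.59 from 12 to 22 DAA in the double mutant. Among the interactions, 7BL ranged from -2.81 to 0.20 for *gpc-A1* and WT to 22 DAA, and between the mutants 7AL ranged from -1.45 to 0.60 (12 DAA) and -1.77 to 0.073 (22 DAA) and 7BL from -2.76 to 1.18 and -3.68 to 0.40.

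Over all loci, *gpc-A1* against WT at 12 DAA gave 342 calls, 1270 by DESeq2 alone, 168 in one fit of all groups, 204 without replicate 4 of WT and 139 to 169 with 1 replicate number left out. The double mutant against WT gave 1272 at 12 DAA, 5161 by DESeq2 alone, 792 with the block, 634 without replicate 4 of WT and 268 to 1141 with 1 number left out, and at 22 DAA 107, 1669 by DESeq2 alone, 36 with the block, 71 with unequal variances, 406 in one fit and as few as 4 with 1 number left out. At 22 DAA *gpc-A1* against WT gave 0, with 128 by DESeq2 alone and 40 in one fit. From HD to 12 DAA the calls went from 217 to 1519 (*gpc-A1*) and from 1055 to 3898 (double mutant) by DESeq2 alone, and from HD to 22 DAA from 1273 to 8901 and from 4537 to 9431. The block gave 419 and 365 from HD to 22 DAA in *gpc-A1* and HD to 12 DAA in the double mutant. The double mutant's interaction with WT to 12 DAA gave 319 by DESeq2 alone, over 1.5 times the edgeR count, and that to 22 DAA went from 16 to 53 with the block.

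Depth limits the HD values of *TaZIP10-like1*, which rest on 18 to 67 reads per group. Shares of the homoeologs separated the groups in 4 of 15 comparisons of *TaZIP10-like1*, in 5 with the replicate block and in 4 to 5 with 1 replicate left out, and in 0 for *TaZIP10* throughout.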
